A study of Homo sapiens with 5 samples.

Results

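DNA replication machinery is the set of proteins that licenses, opens and copies the genome in S phase. A list of 44 genes for these proteins, named by function, was looked up by symbol, and 43 of them were named in both tables of values, out of 17651 genes named in both. The missing gene is PCNA, whose probe in the table of 3 arrays also carries another symbol. It is described only for the clone and is in no count or median unless stated. The cells were MCF12A, an established line of human breast epithelium that does not form tumours, grown as a monolayer, and each of 5 cultures was read on 1 Affymetrix Gene ST array. An untreated culture, cells exposed for 4 weeks to 2.5% ethanol and cells exposed for 4 weeks to 1% acetaldehyde, the first product of ethanol oxidation, make up the table of 3 arrays. The table of 2 arrays holds a clone of cells that grew in soft agar after ethanol exposure, expanded again as a monolayer, and the control named for it. Soft agar growth tests whether cells divide without a surface to attach to. The clone is 1 cellular clone. Its ethanol is given as 2.5% for 4 weeks in one label and as 2.5 mM in the series text, and its control is labelled unexposed but also carries the soft agar tag. All 5 cultures shared the same medium with horse serum, epidermal growth factor, hydrocortisone, insulin and cholera toxin.

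Replication starts with licensing. The origin recognition complex, CDC6 and CDT1 load the MCM2-7 ring, the core of the replicative helicase, onto DNA in G1. In S phase CDC45 and GINS join the ring and turn it into an active helicase, after which polymerases, the PCNA clamp and its RFC loader, RPA and Okazaki fragment enzymes copy the strands. Many of these genes are known targets of E2F transcription factors, which the retinoblastoma protein holds in check until a cell commits to divide, so their transcripts are widely used as markers of cycling cells. Growth factor supply, crowding and loss of attachment all affect how many breast epithelial cells in a culture are cycling. In RNA from whole cultures, fewer cycling cells and less of a transcript per cell cannot be told apart.

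The 5 arrays hold 33297 probes each. Their number limits the precision: 1 array per group gives no spread between cultures and allows no test, and every difference below compares single arrays within 1 table. Levels are intensities on a linear scale, and differences are in log2. A gene counted as at least 2-fold different only where its brighter array reached the median of its table, 70.2 for the 3 arrays and 92.0 for the 2 arrays, called the floor here. That median is not a measured background. All 43 genes lay above the floor in each of the 3 arrays, with median intensities of 267 in the untreated culture, 260.0 in ethanol and 267 in acetaldehyde. In the clone's control 17 of the 43 lay under the floor and in the clone 7, and the median intensities were 106 and 165. The tables belong to different array designs and were treated as normalised apart, so levels are not compared across them.

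The labelled cell type was checked against markers. Of 5 basal breast epithelial markers 3 were named, KRT5, KRT14 and ITGA6, and all 3 were above the floor on every array. Of the luminal markers KRT8 and KRT18 were bright on every array. Of the leukocyte genes, PTPRC, CD3E and ITGAM lay under the floor on every array, while CD14 lay above it on all 5, at 98.7 in each of the 3 arrays, 126 in the clone's control and 128 in the clone. The endothelial genes PECAM1, CDH5 and VWF lay under the floor on every array, and KDR did on all but the clone's, where it had 275 against 69.3 in the control, at least 2.99-fold higher. Several epithelial and fibroblast markers also differed between the clone and its control. The summed intensity of the 3 basal markers was 17830 in the clone's control and 4615 in the clone, and that of the 5 luminal markers was 7070.0 and 6011. The summed intensity of 8 fibroblast markers was 844 and 1971. Of the 6 that reached the floor, 4 were at least 2-fold higher in the clone, beside 14.7% of all genes. For DCN and FAP the control lay under the floor, and their folds are at least 1.81 and 3.12. COL1A2, with 142 and 123, and PDGFRB, with 136 and 103, were lower in the clone. LUM and PDGFRA stayed under the floor. EPCAM, a luminal surface marker, had 378 and 48.7, at least 4.10-fold lower, and MUC1, another, had 1357 and 319. In the table of 3 arrays the basal sum was 8468 in the untreated culture, 4383.5 in ethanol and 8577.5 in acetaldehyde, the luminal sum 4049.9, 4566 and 4620.4, and the fibroblast sum 497, 604 and 584.5. In ethanol KRT14 had 105 against 607 in the untreated culture, EPCAM 85.3 against 613 and MUC1 287 against 854. KRT5 and ITGA6 were also lower. The luminal list was split, since KRT8 was higher in ethanol, at 3068 against 1474. KRT18 had 1004 against 986, and KRT19 had 122 in both. DCN had 88.1 in ethanol and 98.0 in acetaldehyde against 31.4, at least 1.25-fold and 1.40-fold higher. The part of these shifts in the differences below was not tested.

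The soft agar clone had higher levels of most replication genes than its control. The clone's value was above that of the control for 37 of 43 genes and below it for 6. The median log2 difference was 0.75, beside -0.14 over all 18417 named genes. Over the genes whose brighter array reached the floor, the medians were 0.79 and -0.02. Of the 36 genes that reached the floor, 12 stood 2-fold or more above the control and 0 as far below. Among all 12262 genes that reached it, 14.7% stood 2-fold or more above and 5.83% as far below. MCM3, a subunit of the helicase ring, had the widest difference of the 43, with intensities of 95.2 and 447. The 12 genes came from 8 of 10 role groups: CDC6 in licensing, MCM3 and MCM4 in the ring, GINS1, GINS2, MCM10 and TOPBP1 in helicase activation, POLA2 in priming, RFC3 in clamp loading, FEN1 in Okazaki fragment joining, TIPIN in fork protection and RRM2 in nucleotide supply.

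The count depends on the floor. With both arrays required to reach it, 6 of 26 genes were past 2-fold, beside 11.1% of all genes under that rule. They were MCM3, MCM4, GINS2, TOPBP1, RFC3 and RRM2. No gene of licensing, priming, Okazaki fragment joining or fork protection remained, so the spread over roles also depends on the floor. Raising dim values to the floor left 7 of 36, beside 12.0%. The median difference over all probes was -0.17. Relative to that shift 39 of 43 replication genes and 52.3% of all named genes were higher, against 40.5% of all named genes as deposited. The genes closest to the limits were FEN1 and TIPIN just past 2-fold, at 1.04 and 1.06, and MCM5 and POLA1 just short of it, at 0.98 and 0.95. By brightness MCM10 and GINS3 just reached the floor, at 98.8 and 104, and POLD3 and GINS4 just missed it, at 90.3 and 86.5.

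**Figure D1:**
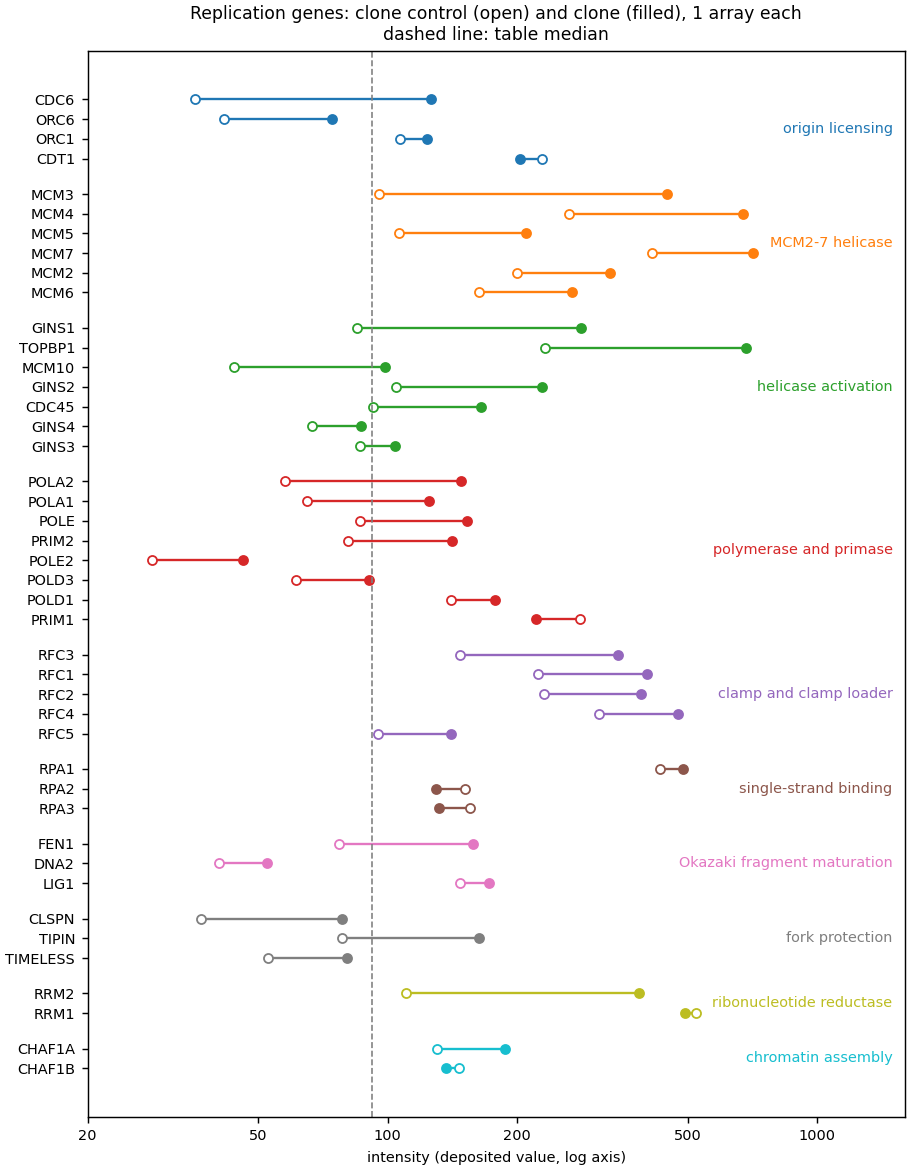
Intensity of 43 replication genes in the clone's control (open circles) and in the clone (filled circles), 1 array each, on a log axis, grouped by role and ordered by difference within a role. The dashed line is the table median of 92.0. In 37 of 43 genes the filled circle lies to the right, farthest for MCM3, at 95.2 and 447, while PRIM1, CDT1, RPA2, RPA3, RRM1 and CHAF1B lie the other way.

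Among the licensing genes the 4 members differed widely. CDC6, the ATPase that loads the ring together with the origin recognition complex, had intensities of 35.6 in the clone's control and 126 in the clone, a log2 difference of 1.82. Since the control lay under the floor, the fold is at least 1.37. CDT1, the partner that brings the ring to origins, went slightly the other way, at 229 and 204, a difference of -0.17 that comes to 0.00 relative to the median shift of all probes. ORC1, the ATPase subunit of the origin recognition complex, had 107 and 123, a difference of 0.21. ORC6, its smallest subunit, had 41.5 and 74.0, both under the floor. CDC6 and CDT1 thus stood at opposite ends of the group.

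All 6 genes of the MCM2-7 ring were higher in the clone, also after each alternative scaling, with a median log2 difference of 0.88. MCM3 had a difference of 2.23, a 4.69-fold higher intensity. MCM4 had intensities of 264 and 673, a difference of 1.35 and 2.55-fold. MCM5 had 106 and 209.8, a difference of 0.98. The other members kept close together: MCM7, MCM2 and MCM6 had differences of 0.78, 0.72 and 0.72. The ring holds its 6 subunits in equal number, but the array differences ran from 0.72 to 2.23, with MCM3 standing apart from the rest.

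Helicase activation had the most genes past 2-fold, 4 of the 6 that reached the floor, beside 14.7% of all genes. This lead depends on the floor. With both arrays required to reach it, GINS2 and TOPBP1 remained here, as many as MCM3 and MCM4 in the ring. GINS1 had intensities of 84.7 and 281, at least 3.06-fold higher, with a log2 difference of 1.73. GINS2 had 105 and 229, a difference of 1.13. Their partners in the same 4-part complex differed less, GINS3 with 0.27, at least 1.13-fold, and GINS4 with 0.37, under the floor in both arrays. TOPBP1, the scaffold that helps to load CDC45 and GINS and also switches on the checkpoint kinase ATR, had 232 and 682, a difference of 1.56 and 2.94-fold. MCM10, which is needed to start unwinding, had 43.7 and 98.8, a difference of 1.17 but a fold of only at least 1.07 against the floor. CDC45, the helicase cofactor, had 92.5 and 165, a difference of 0.83. So all 7 activation genes were higher, with both a strong and a weak member within GINS.

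The polymerase and primase genes were higher in 7 of 8 cases. POLA2, the accessory subunit of polymerase alpha, which lays down primers, had intensities of 57.5 and 148, a log2 difference of 1.36 and at least 1.61-fold. POLA1, its catalytic subunit, had 64.7 and 125, a difference of 0.95 and at least 1.36-fold. The primase pair split: PRIM2, the large subunit, had 80.8 and 141, a difference of 0.81 and at least 1.54-fold, whereas PRIM1, the catalytic subunit, had 280.1 and 222. PRIM1 had the lowest difference of all 43 genes, -0.34. The leading strand polymerase genes POLE and POLE2 had differences of 0.83, at least 1.67-fold, and 0.70, and the lagging strand polymerase genes POLD3 and POLD1 had 0.56 and 0.33. POLE2 and POLD3 lay under the floor in both arrays.

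The clamp loader genes RFC1 to RFC5 were all higher, from 0.56 for RFC5 to 1.23 for RFC3. RFC3, a small loader subunit, had intensities of 147 and 345, 2.34-fold higher, and was the only 1 of the 5 past 2-fold. RFC1, the large subunit, had 224 and 403, a difference of 0.85, and RFC2 and RFC4 had 0.75 and 0.61. PCNA, the sliding clamp that they load, was measured alone only in this table, at 292 and 664, a difference of 1.19 and 2.28-fold. With PCNA the count became 13 genes past 2-fold and the median 0.76.

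RPA, the complex that coats single-stranded DNA, stood apart from the helicase. RPA1, the large subunit, had intensities of 430.1 and 487, a log2 difference of 0.18. RPA2 had 151 and 129.7 and RPA3 had 156 and 132, differences of -0.22 and -0.24, which were still below 0 relative to the median shift. RPA also serves in repair and recombination outside S phase. None of the 3 subunits came near 2-fold, in either direction.

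Among the enzymes that join Okazaki fragments, the flap nuclease gene FEN1 had intensities of 77.0 and 158, a log2 difference of 1.04 and at least 1.72-fold. The ligase gene LIG1 had 147 and 172, a difference of 0.23. DNA2, a nuclease for long flaps, had 40.4 and 52.3, both under the floor. In the fork protection complex TIPIN had 78.5 and 163, a difference of 1.06 and at least 1.78-fold. Its partner TIMELESS had 52.5 and 80.4, a difference of 0.62, and CLSPN, the adaptor that passes the signal on to the checkpoint kinase CHEK1, had 36.7 and 78.4. Both of these lay under the floor, and the dimmer of the CLSPN probes had a difference of 0.63 against 1.10 for the brighter.

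Ribonucleotide reductase, which makes the deoxynucleotides for replication, split by subunit. RRM2, the small subunit, whose transcript is known to peak in S phase, had intensities of 110.1 and 385, a log2 difference of 1.81 and 3.50-fold. RRM1, the large subunit, had 522 and 492, a difference of -0.09. Chromatin assembly factor, which places histones behind the fork, also differed between its subunits, with 0.53 for CHAF1A and -0.11 for CHAF1B. Relative to the median shift both RRM1 and CHAF1B were above 0, and after a lowess correction for brightness CHAF1B was.

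**Figure D2:**
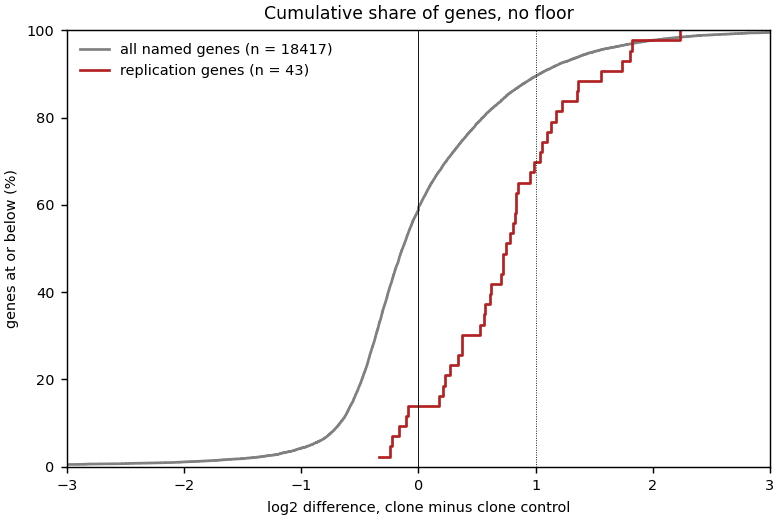
Cumulative share of genes (vertical axis, percent) against the log2 difference of clone and clone control (horizontal axis), with no floor, for 43 replication genes and for all 18417 named genes. The dotted line marks 2-fold. The curve of the replication genes lies to the right, with medians of 0.75 and -0.14, up to about its highest value of 2.23. The curve of all named genes runs on to larger differences, the highest being 6.72.

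Promoter sequences of the genes at both ends are shown because E2F binding sites are the best known shared feature of replication genes. They are the 250 bases before the start of each gene in RefSeq, build GRCh38.p14, written 5′ to 3′ on the gene's strand, with motif letters in capitals on either strand. Among genes past the floor with an entry, MCM3 and CDC6 had the widest differences in the clone as deposited, and PRIM1 and CDT1 the lowest. CDC6 holds its place through a control value under the floor, which leaves a fold of at least 1.37, and RRM2 came next at 1.81 with both arrays above it. Their positions are chr6:52284743-52284992 on the minus strand for MCM3, chr17:40287629-40287878 on the plus strand for CDC6, chr12:56752324-56752573 on the minus strand for PRIM1 and chr16:88803539-88803788 on the plus strand for CDT1.
MCM3: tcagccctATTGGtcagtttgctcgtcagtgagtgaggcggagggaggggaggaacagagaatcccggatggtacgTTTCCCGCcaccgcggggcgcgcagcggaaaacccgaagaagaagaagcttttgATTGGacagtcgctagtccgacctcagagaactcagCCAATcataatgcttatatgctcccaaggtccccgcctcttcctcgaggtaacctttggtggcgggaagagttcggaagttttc
CDC6: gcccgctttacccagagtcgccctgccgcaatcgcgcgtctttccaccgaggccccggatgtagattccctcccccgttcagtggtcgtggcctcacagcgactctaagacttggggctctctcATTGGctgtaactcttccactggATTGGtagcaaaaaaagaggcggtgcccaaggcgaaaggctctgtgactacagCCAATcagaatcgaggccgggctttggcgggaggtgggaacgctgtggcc
PRIM1: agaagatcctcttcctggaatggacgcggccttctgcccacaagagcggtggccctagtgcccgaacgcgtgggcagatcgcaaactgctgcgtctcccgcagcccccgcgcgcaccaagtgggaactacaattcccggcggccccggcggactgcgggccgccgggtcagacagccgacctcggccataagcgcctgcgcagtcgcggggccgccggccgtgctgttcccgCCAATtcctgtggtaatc
CDT1: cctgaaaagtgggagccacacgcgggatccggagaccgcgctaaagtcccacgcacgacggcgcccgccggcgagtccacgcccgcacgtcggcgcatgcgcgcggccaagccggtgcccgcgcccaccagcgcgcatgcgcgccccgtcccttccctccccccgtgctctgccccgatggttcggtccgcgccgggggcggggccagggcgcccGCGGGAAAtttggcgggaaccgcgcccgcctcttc

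The motifs searched, on both strands, were the E2F consensus spelled out as TTTGGCGC, TTTCCCGC, TTTGCCGC and TTTCGCGC, the NF-Y box CCAAT, and the CHR element, TTTGAA or TTCGAA, of genes expressed late in the cycle. E2F words can overlap each other in the same bases. Promoters of 36 of the 43 genes were in the table, and where a gene had several starts, as 6 of them did, the first listed was used. An E2F word stood in 10 of the 36 (27.8%), against 2.79% of 27305 promoters of all kinds and 3.78% of 13662 genes named on the arrays. CCAAT stood in 22 of 36 (61.1%), against 33.0% of all promoters and 34.4% of the array genes. The CHR letters stood in 2 of 36 (5.56%), against 14.6% and 11.9%.

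In MCM3 the word TTTCCCGC lies 174 to 167 bases before the start, with 3 CCAAT boxes around it. CDC6 holds 3 CCAAT boxes and none of the E2F words searched in the stretch printed. It does hold TTTGGCGG, which differs from the searched TTTGGCGC in the last letter and was not counted. The same letters stand in CDT1. CDT1, with a difference of -0.17 in the clone, holds TTTCCCGC on the opposite strand 35 to 28 bases before its start. Over all 300 bases of the RefSeq window, which runs past the start, 17 of 36 hold an E2F word (47.2%), against 3.33% of all promoters and 4.56% of the array genes. The 10 genes with a word before the start had a median log2 difference of 0.89 in the clone and 4 of 10 past 2-fold. The 26 without a searched word, CDC6 among them, had a median of 0.74, and 7 of the 22 that reached the floor were past 2-fold. The ranges overlapped throughout, from -0.17 to 2.23 with the word and from -0.34 to 1.82 without.

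No replication gene differed by 2-fold from the untreated culture after 4 weeks in either compound. In ethanol 0 of 43 genes were 2-fold or more above the untreated culture and 0 as far below, beside 2.63% and 2.44% of 11264 genes. In acetaldehyde the counts were also 0 and 0, beside 1.03% and 0.0536% of 11194 genes. The log2 differences ran from -0.31 to 0.17 in ethanol and from -0.62 to 0.17 in acetaldehyde, with a median of 0.00 in each. Both comparisons share the untreated array. Acetaldehyde set against ethanol gave 0 and 0 of 43, beside 1.85% and 0.526% of 11221 genes, with a range from -0.31 to 0.28. With shares of all genes this low, counts of 0 of 43 lie near them and do not set the replication genes apart.

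Part of this closeness is exact. In ethanol 13 of 43 genes had the same value as in the untreated array, within 1e-06 in log2, and in acetaldehyde 15, or 30.2% and 34.9%. Over all named genes those shares were 45.9% and 51.8%, while in the clone 0 of 43 and 0.706% of all named genes were equal to the control. The spread of the tables is therefore not on 1 footing, and the width of a difference is not compared between them.

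CDC6 had the lowest log2 difference of the 43 in both exposures. Its intensity was 444 in the untreated culture, 358 in ethanol and 289 in acetaldehyde, log2 differences of -0.31 and -0.62. It was the only member at least 1.5-fold from the untreated culture in either exposure. ORC1, its partner in licensing, had 239, 197 and 234, differences of -0.27 and -0.03. MCM7, a ring subunit, had 1264, 1089 and 1151, differences of -0.21 and -0.14, and DNA2 had 92.0, 79.5 and 96.5. PRIM1 had 653, 579 and 621, differences of -0.17 and -0.07.

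On the higher side RRM1 had intensities of 887 in the untreated culture, 981 in ethanol and 998 in acetaldehyde, differences of 0.15 and 0.17. POLA2 had 179, 201 and 183, differences of 0.17 and 0.03, and GINS2 had 476, 523 and 478, differences of 0.14 and 0.01. Of genes with wide differences in the clone, MCM3 had 810.0, 786 and 788, MCM4 had 1188 in all 3 arrays, GINS1 had 693, 693 and 688, and RRM2 had 837, 841 and 823.

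**Figure D3:**
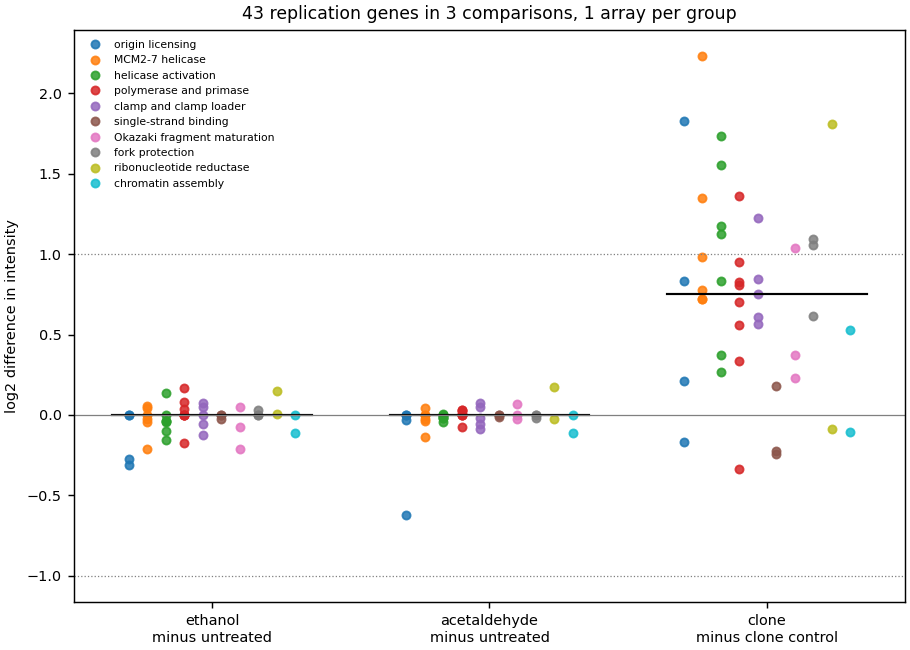
Log2 difference in intensity (vertical axis) of 43 replication genes for ethanol and acetaldehyde against the untreated culture and for the clone against its control, 1 array per group. Points are genes coloured by role, black bars are medians and dotted lines mark 2-fold. Medians are 0.00, 0.00 and 0.75, and CDC6 is the low point at -0.62 in acetaldehyde. The clone's differences come from the other table, and their width is not to be read against that of the exposures.

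Other genes of the replication programme, from lists of related genes, were looked at in the same way. Of 65 further genes measured in the clone for origin firing, polymerases, nucleotide supply, chromatin replication and the checkpoint, 56 were above the control and 9 below it, and the median was 0.61. Of the 57 that reached the floor, 15 were past 2-fold upward and 0 downward, which is 26.3% beside the 14.7% of all genes. This count also depends on the floor. Among the 15, the control lay under it for TICRR, MTBP, WDHD1, TOP2B, TYMS, NPAT, ATR and RAD17. The lower bounds of TICRR, MTBP and RAD17 were under 2-fold, and no count with both arrays at the floor was made for these lists. TYMS, the thymidylate synthase gene, had intensities of 49.7 and 716, at least 7.78-fold higher, and TK1, a thymidine kinase gene, had 144 and 401, a log2 difference of 1.48. TYMS was also the only 1 of the 62 measured in the other table that was past 2-fold in ethanol, at 818 against 399.9. That is 1.69% of the 59 that reached the floor, beside 2.63% of all genes 2-fold or more above. In acetaldehyde TYMS had 607, a difference of 0.60.

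In origin firing, MCM8, a relative of the ring subunits that acts in recombination, had 112 and 402 in the clone, a difference of 1.84. MTBP and TICRR, which help load CDC45, had 1.70 and 1.61, at least 1.25 and 1.78-fold, and ORC3, an origin recognition subunit gene, had 1.33. Among polymerase and topoisomerase genes TOP2B, a topoisomerase, had 1.92, at least 2.89-fold, RNASEH1, which removes RNA from hybrids, had 1.41, and CHTF8, of an alternative clamp loader, had 1.31, while the polymerase delta subunit gene POLD2 had 0.03. NPAT, which drives histone gene transcription in S phase, had 72.1 and 298, at least 3.24-fold, the methyltransferase gene DNMT1 had 1.40, and SUPT16H, of a histone chaperone, had 1.32. The checkpoint kinase gene ATR had 71.1 and 269, at least 2.92-fold, and RAD17, its clamp loader partner, had 70.3 and 147, at least 1.60-fold. Under the floor in both arrays, the chromatin remodeller gene HELLS had 1.99 and ATAD5, which unloads the clamp, had 1.18.

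Among regulators of entry into S phase, 22 of 28 genes of E2F, the retinoblastoma family and G1/S cyclins were above the control in the clone and 6 below, with a median of 0.54, and 23 were above relative to the median shift. Of these, 4 of the 25 that reached the floor were past 2-fold upward and 0 downward, or 16.0%, near the background of all genes. TFDP1, the partner that E2F proteins need to bind DNA, had intensities of 752 and 2912, a difference of 1.95. CCNE2, a cyclin E gene, had 73.9 and 214, at least 2.33-fold, and in log2 FBXO5, an inhibitor of the anaphase promoting complex, had a difference of 1.40 and SKP2, part of a ubiquitin ligase for p27, 1.01. E2F1 itself had 221 and 197, a difference of -0.17. CCND2, a cyclin D gene, had 213 in ethanol against 694 in the untreated culture, a difference of -1.70, with 622 in acetaldehyde. It was the only 1 of the 27 measured there that was past 2-fold in ethanol, beside 2.44% of all genes as far below.

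Of 7 measured CDK inhibitor genes, whose products hold back the cyclin-dependent kinases, 6 were lower in the clone, and still 6 relative to the median shift, but 0 reached 2-fold. Of all 18417 named genes 58.8% were lower as deposited and 47.7% relative to that shift. CDKN1B, the p27 gene, had intensities of 1041 and 542, a difference of -0.94. CDKN2D and CDKN1C had differences of -0.91 and -0.83, and CDKN1A, the p21 gene, had 1381 and 886, a difference of -0.64. CDKN2B had 138 and 73.7, the latter under the floor. CDKN3, a phosphatase gene expressed in dividing cells, was the exception with a difference of 0.84, at least 1.53-fold higher. Mitosis genes resembled the replication genes in their median, 0.75 over 23. Of the 21 that reached the floor, 9 were past 2-fold upward (42.9%) and 0 downward, beside 14.7% and 5.83% of all genes. For MKI67 and KIF11 among the 9 the control lay under the floor. MKI67, the proliferation marker, had 58.8 and 396, at least 4.30-fold higher, and CENPF, a kinetochore gene, had 111 and 524. In ethanol 16 of 21 mitosis genes were above the untreated culture and 2 below, with a median of 0.12 and 0 past 2-fold. The 43 replication genes in ethanol had 12 above, 18 below and 13 equal, and all 17958 named genes had 26.5% above, 27.5% below and 45.9% equal.

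**Figure D4:**
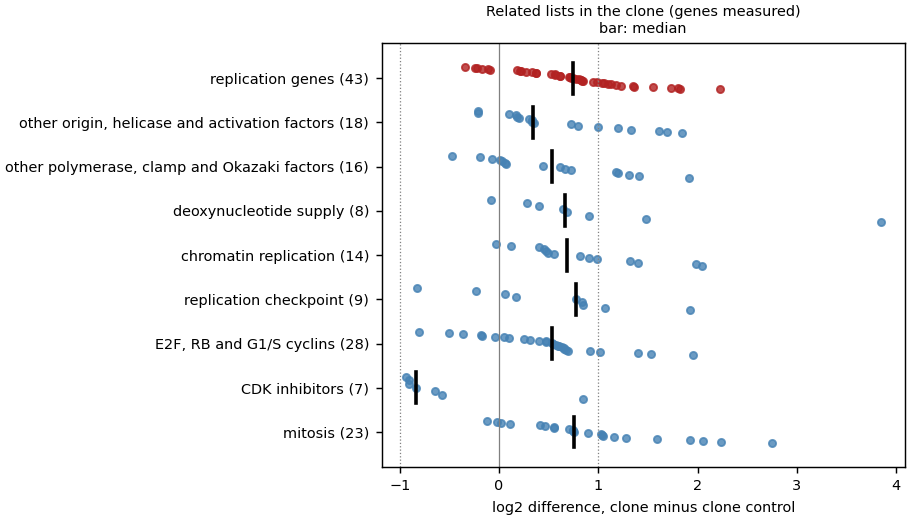
Log2 difference of clone and clone control (horizontal axis) for 43 replication genes and 8 related gene lists, with the number of genes measured in parentheses, points for genes, bars for medians and dotted lines at 2-fold. The CDK inhibitors have a median of -0.83, and the other lists have medians above 0, 0.75 for replication and 0.75 for mitosis genes. The point near 4 is TYMS.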

How the data were processed

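The values are the authors' deposited intensity for each probe on a linear scale, made with RMA (background correction, quantile normalisation, probe summary), per the submitters' processing notes; the version, genome build and annotation are not given in the sources used here. The labels' protocols assign one array design to 1-week and another to 4-week exposures, which does not match the tables and was not resolved. Log2 was taken of each intensity. Probes with exactly 1 symbol in the platform annotation were used, 19181 of 33297 in the table of 3 arrays and 19460 in the other, and the probe with the highest mean log2 value stood for a gene. All 43 genes matched RefSeq records and 0 were renamed. Differences were taken within a table, and genes at or past 2-fold were counted where the brighter array reached the table median. Where the dimmer array lay under it, the fold is the brighter value over that median, a lower bound. With 1 array per group no test was run. The genes and lists were chosen with earlier results of these data known. All 43 genes are accounted for; values are printed for those past 2-fold and for the extremes of each role, with others chosen after their values were seen. Of other lists up to 4 genes past 2-fold were named by size, and further ones after seeing values. Counting was checked on simulated data. Alternatives varied floor, fold, scaling and probe choice. Calculations used Python 3.11.15, pandas 2.3.3 and statsmodels 0.14.6.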

Additional observations from a re-analysis of the deposited data

How the results depend on the processing

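With 1 array per group no replicate could be left out, and no spread sets how large a move matters, so a median was taken as moved past 0.1 in log2 and a count past 1.5 times. In the clone the count of 12 genes at least 2-fold higher was 6 with both arrays at or above the floor. With dim values raised to the floor (added after seeing the data) it was 7. At 1.5-fold 23 of 36 genes were higher, beside 25.6% of all genes. The 2-fold count lay from 12 to 15 with no floor, a lower floor, centring, quantile normalisation again or a lowess correction. So it did with other probe rules, equal values left out or PCNA added. The share of all genes in these settings ran from 10.5% with no floor to 18.4% with centring. The median of 0.75 was 0.92 with centring and 0.53 with dim values raised, since 17 control values lay under the floor. In acetaldehyde 1 gene, CDC6, was lower at 1.5-fold. The other counts for ethanol and acetaldehyde were 0 under each alternative, and those medians stayed within 0.1. Dim values limit CDC6, GINS1, MCM10, POLA2, FEN1 and TIPIN, whose folds are bounds. No paired analysis was possible because each group has 1 array.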

Other observations

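Equal values in the table of 3 arrays followed several patterns among the 43 replication genes. In 10 genes all 3 arrays had the same value, among them MCM4, CDT1, POLE, TIPIN and TIMELESS (23.3%, against 40.7% of 17958 named genes). In 7 genes ethanol equalled acetaldehyde but not the untreated culture (16.3% against 8.60%): MCM2, MCM6, TOPBP1, RFC1, RFC4, RFC5 and CHAF1B. In 5 genes acetaldehyde alone equalled the untreated culture, in 3 ethanol alone did, and in 18 all 3 arrays differed (41.9% against 34.3%). For the 7 genes shared by both exposures the differences from the untreated culture lay between -0.11 and 0.08.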
